A study of Mus musculus with 12 samples.

Results

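Pecam1, Esam, Lsr, Itga5, Angptl2 and Epo, genes of vessel walls, cell adhesion and blood vessel growth, carried YTHDF1 CLIP peaks in mouse striatum. They were chosen by symbol because they appear in a table of peaks per gene for cocaine or for saline, with those results known. Their levels are therefore a description, and so is the fit for Angptl2 below. They are 6 of 1247 genes in either table. Of the 6, 5 were in the cocaine table, 2 in the saline table and 1, Angptl2, in both.

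The mice were wild-type C57BL/6J and were given cocaine or saline; dose, timing, age and sex were not given in the sources used here. Each treatment had 3 CLIP libraries, in which RNA crosslinked to protein by ultraviolet light was precipitated with an antibody against YTHDF1, and 3 input libraries without antibody, whose values were not analysed here. The tissue was lysed whole after freezing, although the labels name striatal neurons. The values are counts of peaks, not of reads, and libraries 1 to 3 of a treatment are numbered here by column, since the tables give them no number.

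YTHDF1 is a cytoplasmic reader of N6-methyladenosine, the most common internal modification of messenger RNA, and has been linked to more efficient translation of its target messages. Endothelial cells line the vessels of the brain and seal them with junctions that form the blood-brain barrier. Pecam1 and Esam are immunoglobulin-superfamily adhesion molecules of endothelial contacts, and Lsr is a protein of the corners where 3 cells meet. Itga5 is the alpha subunit of the main fibronectin receptor. Angptl2 and Epo are secreted: Angptl2 is an angiopoietin-like glycoprotein, and erythropoietin drives red cell formation and is induced by low oxygen.

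The cocaine libraries held 24770 to 25528 peaks in 1049 listed genes and the saline libraries 3720 to 3944 in 449. The sequencing depth behind the peaks is unknown. A listed gene had 1 or more peaks in each library of its table, and a mean above 6 peaks in cocaine or above 1 in saline. A gene that is missing from a table may thus have a lower mean or no peak in a single library, and it was never set to 0. Without input values, more RNA and more binding per RNA cannot be told apart, and in whole tissue neither can fewer cells of a type and less RNA per cell.

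Of all 21900 protein-coding genes of the annotation, 731 (3.34%) were listed in either table, and counts of markers are read against that share. Of 22 markers of striatal neurons, 2 were listed (9.09%): Gnal, a G protein subunit of dopamine receptor signalling, in both tables, and Gad1, which makes GABA, in saline alone. Drd1, Drd2, Ppp1r1b and Penk were in neither. Of 28 endothelial markers, 3 were listed (10.7%): Pecam1, Esam and Tek. Pecam1 and Esam were chosen because a table lists them, so that share was partly fixed beforehand and Tek alone adds to it. Cldn5, Cdh5, Flt1 and Kdr, which also define brain endothelium, were in neither table, as most genes were. Of the markers of other cell types, 1 of 14 for mural cells (Notch3), 0 of 10 for astrocytes, 1 of 12 for oligodendrocytes (Cnp) and 2 of 11 for microglia (Cx3cr1 and P2ry12) were listed. P2ry12 lies wholly inside the gene Med12l, which was in both tables, and how peaks were divided between them is not given. With lists this short, counts of 0 to 2 do not set a list apart from the share over all genes. The counts cover either table, and the part of any cell type in the results below was not tested.

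Among the adhesion genes, Pecam1 was listed in saline alone. Its saline libraries held 4, 3 and 2 peaks, a mean of 3.0 ± 1.0 (SD, n = 3), and each was within 1 peak of the mean. The gene spans 61.1 kb of chromosome 11, from 106654213 to 106715281 (mm10), and overlaps no other gene of the annotation. That span gives 0.0491 peaks per kb, close to the middle of the 344 named saline genes with a length (median 0.050). There were 28 other saline genes with a mean of 3.0 peaks. Of these, 12 were also in the cocaine table, where their means ran from 6.67 to 22.3 with a median of 13.5, and 16 were missing from it as Pecam1 was.

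Esam was listed in cocaine alone, with 4, 10 and 7 peaks in the 3 libraries and a mean of 7.0 ± 3.0 (SD, n = 3). The highest library had 2.5 times the peaks of the lowest. The gene is short, 10.2 kb on chromosome 9 from 37528089 to 37538319, and lies 1975 bases from Msantd2 on one side and 935 bases from Vsig2 on the other. Neither neighbour was listed.

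Lsr had 10, 5 and 7 peaks in cocaine, a mean of 7.33 ± 2.52 (SD, n = 3), and was missing from the saline table. It spans 15.7 kb of chromosome 7 from 30957770 to 30973469. Its neighbours are close, Usf2 at 818 bases and Fam187b at 324 bases, and neither was listed.

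Itga5 stood at the cutoff of the cocaine table. Its libraries held 3, 6 and 10 peaks, and its mean of 6.33 ± 3.51 (SD, n = 3) is the lowest that any listed cocaine gene had, shared with 49 other genes. The libraries differed 3.33-fold. It spans 22.5 kb of chromosome 15 from 103344286 to 103366791, and contains the microRNA gene Mir6963.

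The listing of these 3 genes rested on single libraries. Without library 3 the mean of Itga5 was 4.5 peaks, and without library 2 that of Esam was 5.5, both under the cutoff. Without library 1 that of Lsr was 6.0, which does not exceed it. Per kb of gene span Esam had 0.684 peaks, Lsr 0.467 and Itga5 0.281, against a median of 0.390 over 714 named cocaine genes (interquartile range 0.124 to 1.03). Given SDs of 34.3 to 55.5% of the mean, this order does not separate the 3 genes. Their absence from the saline table is what most genes of that level showed. Among other cocaine genes within 10% of the mean, 5 of 89 were listed in saline for Itga5, 18 of 201 for Esam and 19 of 183 for Lsr.

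**Figure D1:**
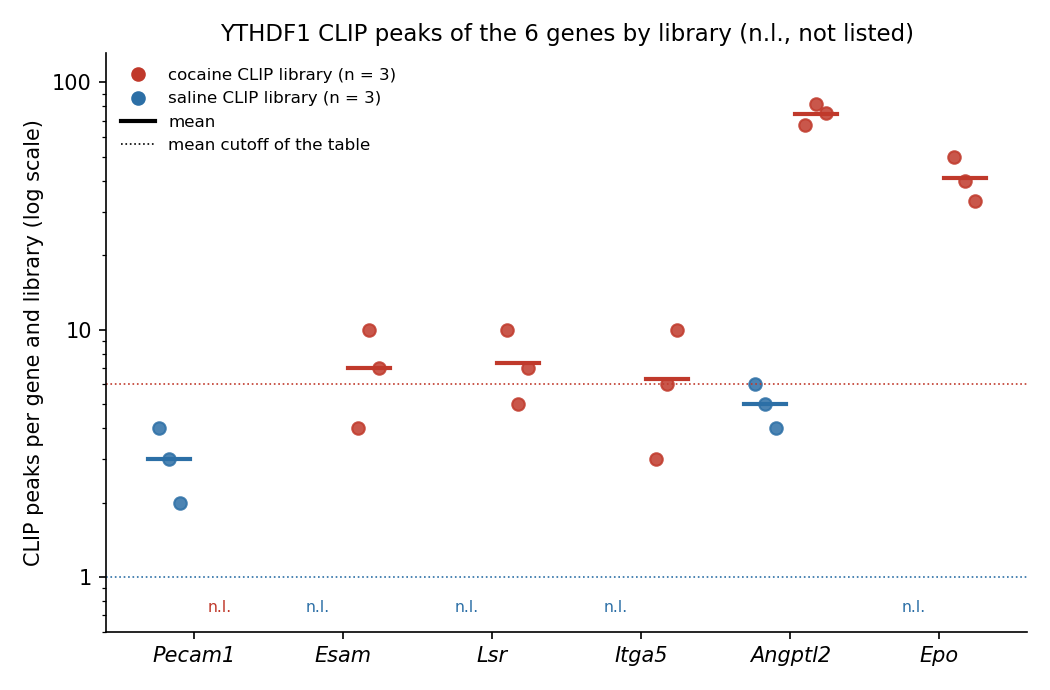
Each point is the number of CLIP peaks of a gene in 1 library (log axis), in red for cocaine and blue for saline; bars are means over 3 libraries, dotted lines the cutoffs on the mean (6 in cocaine, 1 in saline), and n.l. marks a gene not listed in that table. Angptl2 and Epo stand far above the cocaine cutoff, while Esam, Lsr and Itga5 have means just above it and a library below it, and Angptl2 is the only gene with points in both colours.

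The secreted factors carried far more peaks in cocaine. Angptl2 had 67, 82 and 75 peaks in cocaine, a mean of 74.7 ± 7.51 (SD, n = 3), and 6, 5 and 4 in saline, a mean of 5.0 ± 1.0. The lowest cocaine library lay above the highest saline library, and the libraries of each treatment were close together. The SD was 10.1% of the mean in cocaine, where the median over all genes was 37.3%, and 20.0% in saline. The median cocaine gene had a mean of only 12.7 peaks, so that 37.3% is not for genes at the level of Angptl2. In cocaine 43 of the 1049 genes had more peaks, and in saline 169 of the 449.

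The mean of Angptl2 was 14.9 times as high in cocaine as in saline, and 11.2 to 20.5 times over single pairs of libraries. This was the second highest ratio of the 251 genes in both tables and the highest of the 168 with a symbol, against a median of 4.54 (interquartile range 3.0 to 6.63). Every cocaine library exceeded every saline library for 77.7% of the shared genes, so that separation is common. Among genes in both tables, those at a like level in 1 treatment did not reach this ratio, and a gene missing from a table has none. Among 14 other cocaine genes within 10% of its mean, 12 were in the saline table, all with more saline peaks than Angptl2 (5.67 to 48, median 12). Among 36 other saline genes within 10% of its mean, 28 were in the cocaine table, all with fewer cocaine peaks (7.33 to 63.3, median 22.3).

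The share of a library's peaks removes the difference in totals. Angptl2 held 0.262, 0.331 and 0.301% of the listed peaks of the cocaine libraries and 0.158, 0.134 and 0.101% of those of the saline libraries. Its share was thus 2.27 times as high in cocaine, with no overlap between treatments; 6.37% of the shared genes had a higher share in every cocaine library. The cocaine table has the higher cutoff, and 54.5 to 55.9% of its peaks lay in shared genes against 85.4 to 86.0% in saline, so the choice of total matters. In edgeR's fit over 202 shared genes, on totals of those genes with TMM factors, the log2 difference in share was 1.58 (SE 0.39), the second highest of all. In that fit 10.4% of genes had a significantly higher share in cocaine and 17.8% a lower one, at a Benjamini-Hochberg adjusted p under 0.05. The split was 21 higher and 36 lower with TMM factors and 31 and 29 without them. It was 5 and 52, of 220 genes tested, on totals of all listed peaks without TMM factors. Angptl2 was among the genes with a significantly higher share, which is a description here because the gene was chosen with this value known. On those last totals the log2 difference of Angptl2 was 1.18 (SE 0.39).

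**Figure D2:**
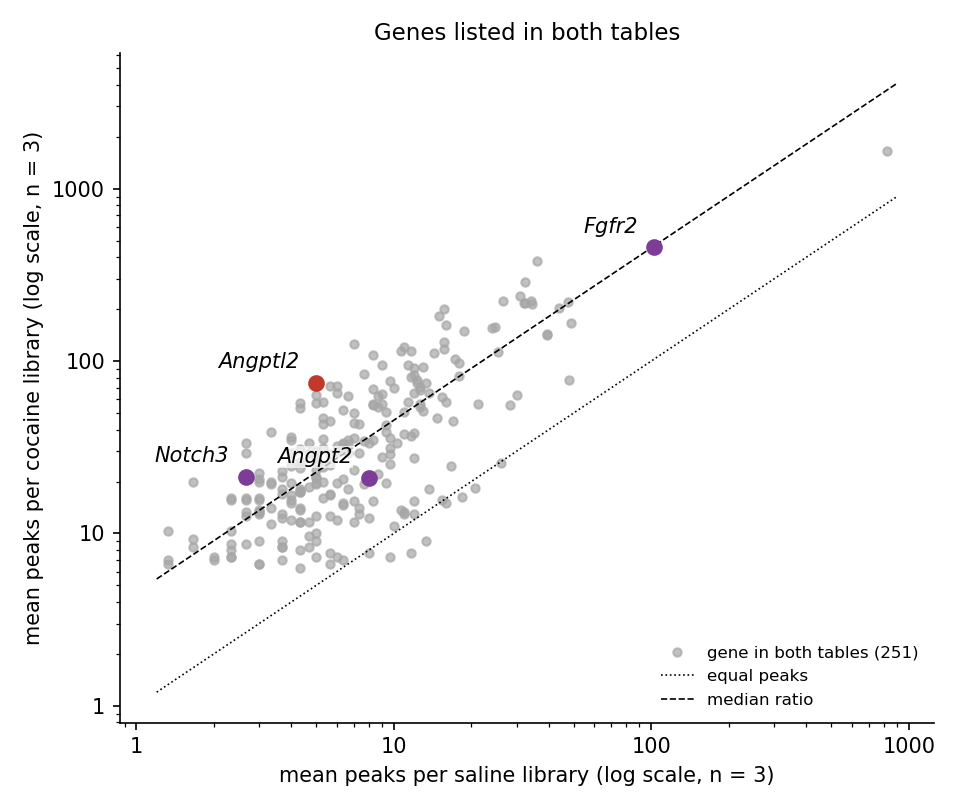
Mean peaks per cocaine library against mean peaks per saline library (both log axes, n = 3 libraries each) for the 251 genes in both tables; the dashed line is the median ratio of 4.54 and the dotted line marks equal peaks. Angptl2 (red) lies at the upper edge at 74.7 against 5.0 peaks, Fgfr2 on the dashed line, Notch3 above it and Angpt2 below it (purple).

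Angptl2 is a gene within a gene. It spans 31.8 kb of chromosome 2 from 33215951 to 33247725 on the plus strand, and lies wholly inside Ralgps1, a guanine nucleotide exchange factor gene of 238.1 kb on the minus strand (33133419 to 33371499). Ralgps1 was in neither table under its symbol. The tables give no strand or position of a peak, so peaks of Angptl2 and of its host cannot be told apart here. Per kb of its own span Angptl2 had 2.35 peaks in cocaine, where 72 of 714 named genes had more, and 0.157 in saline.

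Epo had 50, 40 and 33 peaks in cocaine, a mean of 41 ± 8.54 (SD, n = 3), and was missing from the saline table. All 3 libraries were far above the cutoff, and 104 of the 1049 cocaine genes had more peaks. At that level a saline listing was neither rare nor the rule. Of 25 other cocaine genes within 10% of its mean, 10 were in the saline table, with 3.33 to 17 peaks there.

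For its length Epo was near the top of the cocaine table. The gene spans 2.80 kb of chromosome 5 from 137483020 to 137485816 on the minus strand, and only 14 of 714 named cocaine genes were shorter. It had 14.7 peaks per kb, the tenth highest value, against a median of 0.390. Among the 44 named genes under 5 kb the median was 11.7 peaks, and 5 had more than Epo. The non-coding gene Gm36056 lies on the opposite strand and covers 88.8% of Epo; it was not listed under its symbol. The next gene to the left, the non-coding Gm38725, lies 2555 bases away, and the next to the right, the coding Pop7, 15622 bases. Neither was listed under its symbol. How a peak outside a gene was assigned is not given in the sources used here, so these peaks need not lie within the 2.80 kb.

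**Figure D3:**
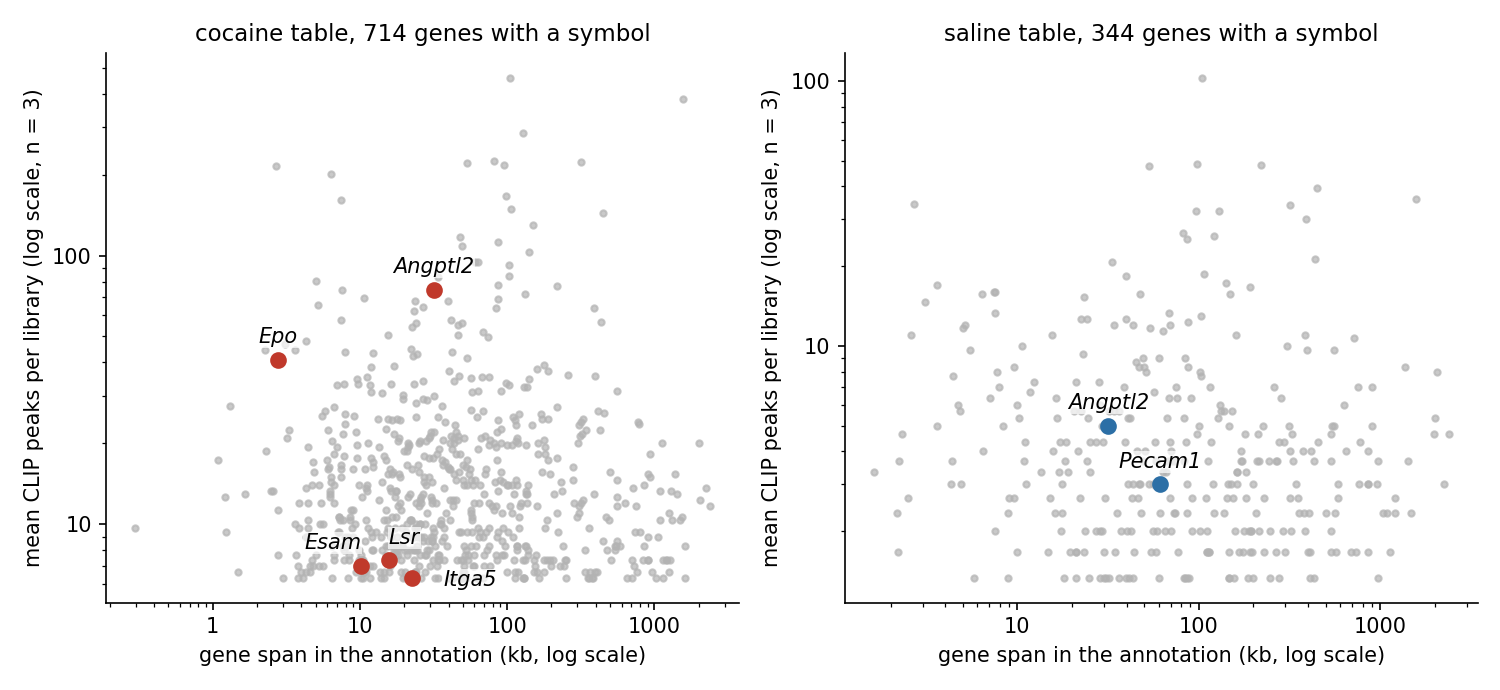
Mean CLIP peaks per library (log axis, n = 3 libraries) against the span of the gene in kb (log axis) for genes with a symbol, 714 in cocaine (left) and 344 in saline (right), with the described genes in colour. Epo sits among the shortest genes at 41 peaks, and peaks did not follow length over the named cocaine genes (Spearman correlation 0.00201).

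Over the named genes of a table, peaks and span were not related in cocaine (Spearman correlation across 714 genes 0.00201) and weakly so in saline (-0.109 across 344 genes). These are descriptions across genes that share their libraries.

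Genes with the most similar counts were sought by the Euclidean distance of log2 peaks over the libraries. For Angptl2, over 6 libraries and 167 other named shared genes, the nearest was the non-coding Pcsk2os2, which counted 51, 67 and 55 peaks under cocaine against 6, 5 and 5 under saline (distance 0.74). It was followed by Rundc3b (0.94) and Usp50 (1.63). For Epo, over 3 cocaine libraries and 548 candidates listed in cocaine alone, the nearest were Cenpp (0.40), the non-coding Gm38505 (0.45) and Vasn (0.53). Wdr95 had the same 3 counts as Lsr, and Cadm2, a synaptic adhesion gene, the same 3 saline counts as Pecam1. Glod4, Kdm2b and Gm11437 were nearest to Esam, and Gngt2, Plin4 and Rrbp1 to Itga5, at distances of 0.19 to 0.32.

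The other genes of these pathways came from 7 lists of endothelial and mural markers, junctions, integrins, angiogenic factors, angiopoietin-like proteins and erythropoietin signalling, 163 genes in all. Of these, 13 were in the cocaine table (7.98%) and 8 in the saline table (4.91%), while 2.58% and 1.33% of all 21900 protein-coding genes were. The lists were written with earlier results known and include the 6 genes. Without them 8 of 157 (5.10%) were listed in cocaine and 6 (3.82%) in saline, and 3 of those were in both. These shares were not tested.

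Receptors and ligands of vessel growth had 4 of 37 genes listed (10.8%, against 3.34% of all coding genes), all of them in cocaine. Fgfr2, a fibroblast growth factor receptor, was the strongest of them, with 487, 465 and 421 peaks in the cocaine libraries against 106, 96 and 106 in the saline ones. Tek, the angiopoietin receptor of endothelium, had 17, 15 and 7 peaks in cocaine alone, and Fgf1, a fibroblast growth factor, 28, 16 and 16. Fgf1 lies inside Arhgap26, which was in both tables. Angpt2, the angiopoietin that can block Tek, counted 15, 30 and 18 peaks under cocaine against 11, 3 and 10 under saline. Its ratio of 2.63 is below the median of the shared genes, where that of Angptl2 is far above it. The VEGF ligands Vegfa, Vegfb, Vegfc and Vegfd and their receptors Flt1, Kdr and Flt4 were in neither table.

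Of the shared list genes other than Angptl2, 2 of 3 could be tested in edgeR and 0 passed an adjusted p of 0.05 in either direction, where 28.2% of all tested shared genes did; 0 of 2 is no departure from that share. None had an unadjusted p under 0.05, and DESeq2 called 0 of the 3 and gave none an unadjusted p under 0.05. In edgeR's fit the share of Angpt2 differed by a log2 value of -0.91 with an SE of 0.48 (adjusted p = 0.188) and that of Fgfr2 by -0.15 with an SE of 0.13 (adjusted p = 0.442). Notch3, a receptor of mural cells whose cocaine libraries held 15, 25 and 24 peaks against 3, 2 and 3 under saline, was removed by the filter on low counts; without it the difference was 0.78 (SE 0.51, edgeR adjusted p = 0.338).

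From 33 junction genes 5 were listed (15.2%, against 3.34% of all coding genes). Of the 5, Pecam1, Esam and Lsr were chosen because a table lists them, so this share was partly fixed beforehand. The others were Ctnna1, the alpha-catenin that links cadherins to actin, with 18, 15 and 3 peaks in cocaine alone, and Cgnl1, a tight junction scaffold, with 3, 2 and 3 peaks in saline alone. Tjp1, Ocln, Marveld2 and the Lsr relatives Ildr1 and Ildr2 were in neither table. From 35 integrins and partners 4 were listed (11.4%), a share that likewise includes a chosen gene, Itga5. Besides Itga5 these were Vcl, which couples integrins to actin, with 13, 8 and 14 peaks in cocaine alone, and in saline alone Itga9 with 3, 6 and 4 peaks and the leukocyte integrin Itgam with 2, 2 and 2. Itgb1, the partner of Itga5, and their ligand Fn1 were in neither table. From 18 genes of erythropoietin and hypoxia signalling Epo alone was listed (5.56%). Epo was chosen because a table lists it, so this share cannot be read against that of all coding genes. The Epo receptor gene Epor and the hypoxia factors Hif1a and Epas1 were not listed.

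**Figure D4:**
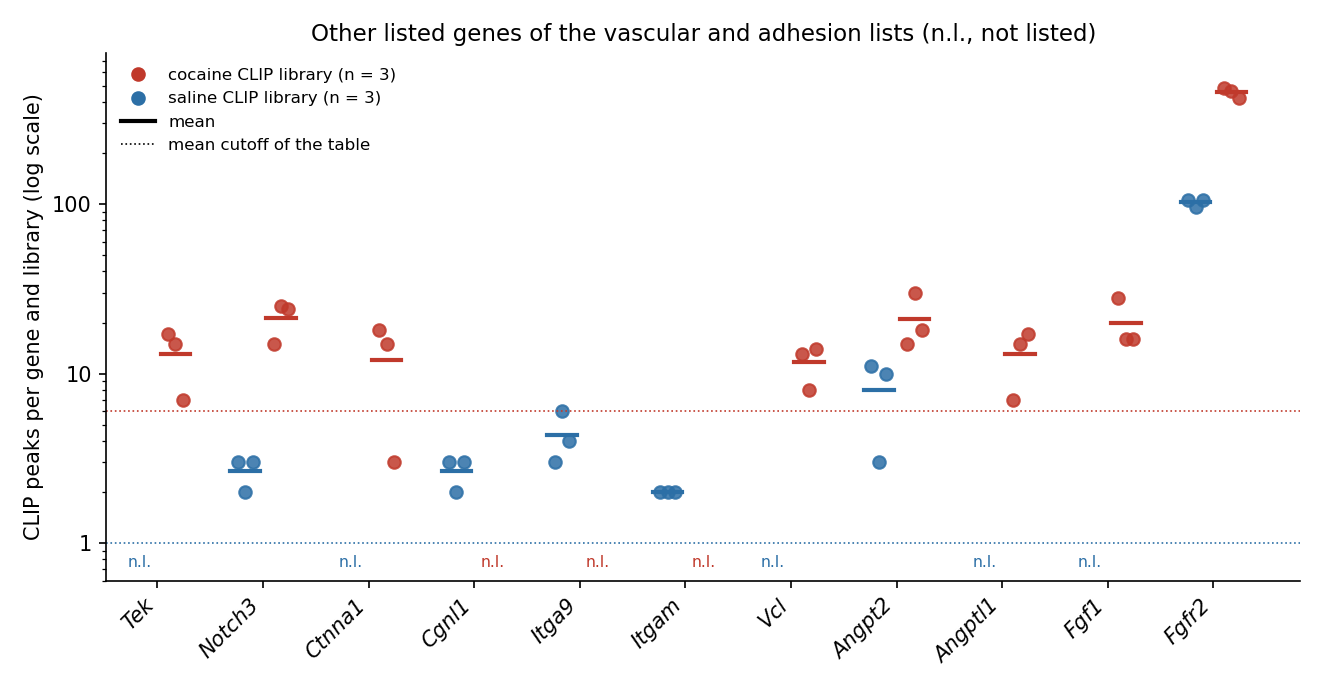
Points are CLIP peaks of a gene in 1 library (log axis), red for cocaine and blue for saline, bars are means over 3 libraries and dotted lines the cutoffs on the mean, for the 11 other listed genes of the 7 lists; n.l. marks a gene not listed in that table. Of these genes 3 have points in both colours, and in Angpt2 the cocaine points start at 15 peaks, above the highest saline point at 11.

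The position of Angptl2 inside another gene recurred among its listed relatives. Of 9 angiopoietins and angiopoietin-like genes in the lists, 3 were in a table, and all 3 lie wholly inside a larger coding gene: Angpt2 in Mcph1, Angptl1 in Ralgps2 and Angptl2 in Ralgps1. None of these 3 host genes was in either table under its symbol. Of the 6 that were not listed, 4 have no such host and 2 lie inside a coding gene, Angptl7 in Mtor and Angptl8 in Dock6. Among all protein-coding genes 2.89% lie inside another, and among listed coding genes 8.32% in cocaine and 3.77% in saline do. Angptl1 had 7, 15 and 17 peaks, in cocaine alone, so the 3 genes differ widely in number of peaks. The rule that gave a peak to an inner gene or to its host is not given in the sources used here, and its part in these listings was not tested.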

How the data were processed

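Reads were trimmed with cutadapt and aligned with STAR to mm10, per the submitters' processing notes, which give no versions; the file names point to the CLIPper peak caller. The deposited values are counts of peaks per gene and library. Each table also has the authors' mean of its columns, a deposited signal value used only to check them. A table's treatment was taken from the letter in its name that opens the library names; columns carry no replicate number. Genes repeated on several lines were counted once. Nothing says that libraries came from separate animals, so SDs and tests measure only the spread between these libraries, which may be technical.

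Shares of shared genes were fitted with edgeR 4.0.16 (R 4.3.3), with filterByExpr, TMM factors and the quasi-likelihood test. The SE is the absolute log2 difference over the root of F. The fit was tried on simulated data with higher counts than the real ones and changes balanced between directions. That trial does not cover counts as low as those in saline. DESeq2 1.42.0 was an alternative. Python 3.11.15, pandas 2.3.3 and NumPy 2.4.6 were used. Positions, strands and lengths are RefSeq's for GRCm38.p6. Named are the 6 genes, the 3 genes nearest to each in counts, the listed genes of the fixed lists, and overlapping or adjacent genes; genes of the lists that are missing from both tables were named after this was seen. The genes and lists were chosen with earlier results of these data known. A gene of these lists is not reported here and was left out of the list counts.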

Additional observations from a re-analysis of the deposited data

How the results depend on the processing

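The higher share of Angptl2 in cocaine kept its direction and its side of the threshold under all 11 alternatives run, with log2 differences from 1.18 to 1.80 (2.27- to 3.48-fold). Leaving out each library gave 1.32 to 1.80. All runs drew on the same libraries and the gene was chosen with this value known, so this is a description only. The number of shared genes called, 57 of 202 tested, fell to between 23 and 49 when a library was left out. Without cocaine library 1, 2 or 3 it was 24 of 108, 27 of 103 and 23 of 105 genes tested. Without saline library 1, 2 or 3 it was 33 of 240, 38 of 240 and 49 of 241. The number tested changed too, so these counts do not share a base. The split of the called genes moved with the scaling. It was 21 higher and 36 lower with TMM factors and 31 and 29 without them, both of 202 genes tested. On totals of all listed peaks without TMM factors, an alternative chosen after seeing the data, it was 5 and 52 of 220. At a mean above 6 peaks in both tables, 0 of the 2 saline members and 2 of the 8 saline list genes remained listed. Mean peaks without 1 library ran from 36.5 to 45 for Epo, 71.0 to 78.5 for Angptl2 in cocaine and 4.5 to 5.5 in saline. They ran from 2.5 to 3.5 for Pecam1, 5.5 to 8.5 for Esam, 6.0 to 8.5 for Lsr and 4.5 to 8.0 for Itga5. With 3 libraries such means always stay within 1 SD of the full mean, so that is no sign of stability. The lowest means of Esam, Lsr and Itga5 did not exceed the cocaine cutoff of 6. Ranking among genes with a symbol only moved none of the 7 percentiles beyond the spread between libraries. Lengths of merged exons were not run, because no exon positions were used here. No paired analysis was possible because the columns carry no replicate numbers. The read depth behind the peaks limits all values and is unknown.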
